A study of Mus musculus with 12 samples.

Results

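The complement genes described here are the 9 components and regulators C1qa, C1qb, C1qc, C2, C3, C4b, Cfb, Cfd and Serping1, found by exact match of the gene symbol among 45777 genes measured by RNA sequencing of mouse hindlimb. All 9 were found, and all 9 passed the filter on low counts that left 19740 genes for testing. Per the labels, the 12 libraries were 4 from limbs with lymphedema (LE), 4 from a lymph node transfer group (VLNT) and 4 from a group given lymph node transfer with ABTAA (VtA). Lymphedema is swelling of tissue in which lymph is not drained, and lymph node transfer places a node with its vessels at the affected site. The antibody ABTAA binds the ligand angiopoietin-2 and thereby activates its endothelial receptor Tie2. The labels put all 3 groups in 1 mouse model and give no unoperated limb, strain, sex, age, dose or time after surgery. Whether each replicate is a different animal is not stated, and the p-values therefore measure only how far these samples spread, which may include purely technical variation. Each library is called by its group with a number, such as LE1 or VtA4.

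Complement is a cascade of secreted proteins that marks microbes, immune complexes and damaged cells for clearance and recruits leukocytes. In the classical pathway C1q, assembled from the products of C1qa, C1qb and C1qc, binds its target and activates the proteases C1r and C1s, which cleave C4 and C2 to form an enzyme that cleaves C3. In the alternative pathway factor D, encoded by Cfd, cleaves factor B, encoded by Cfb, to build a second C3-cleaving enzyme, and C1 inhibitor, encoded by Serping1, blocks C1r and C1s as well as the kallikrein that releases bradykinin. Tissue macrophages are a main source of C1q, mouse fat cells are a main source of factor D (also called adipsin), and the liver makes most circulating C3.

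In the GRCm38.p6 assembly the 3 C1q genes lay side by side on the minus strand, C1qb at chr4:136880126-136886200, C1qc at chr4:136889801-136892936 and C1qa at chr4:136895916-136898844. The gaps between them were 3600 and 2979 bases. C4b at chr17:34728139-34743902, Cfb at chr17:34856374-34862514 and C2 at chr17:34862602-34882100 also shared a neighbourhood on the minus strand, with 87 bases between Cfb and C2. C3 lay elsewhere on that chromosome, at chr17:57203967-57228136 on the minus strand. Cfd lay at chr10:79890853-79892655 on the plus strand and Serping1 at chr2:84765360-84775444 on the minus strand. C4b has a near-identical neighbour, C4a, so the split of reads between the 2 genes is uncertain.

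Promoter sequences from RefSeq (GRCm38.p6) were matched for 4 of the 9 genes, and C1qa, C2, C4b, Cfb and Serping1 had no entry. For all 4 the 250 bases before the start site of the RefSeq table are printed on the gene's own strand. Capitals mark matches, on either strand, to 4 motifs: C/EBP (TTNNGNAA), the PU.1 core (GAGGAA), NF-kB (GGG and CC with any 5 bases between) and an interferon-response motif (GAAA and GAAA with any 2 bases between). The windows are chr4:136886201-136886450 for C1qb, chr4:136892915-136893164 for C1qc, chr17:57228137-57228386 for C3 and chr10:79890603-79890852 for Cfd. The start site listed there for C1qc lies inside the gene span given above, so 22 bases of its window overlap that span.
C1qb: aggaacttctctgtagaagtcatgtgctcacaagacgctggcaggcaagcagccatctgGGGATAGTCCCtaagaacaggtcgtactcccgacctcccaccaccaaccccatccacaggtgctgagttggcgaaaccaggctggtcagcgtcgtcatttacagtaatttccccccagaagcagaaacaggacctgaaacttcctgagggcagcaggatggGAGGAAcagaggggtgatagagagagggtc
C1qc: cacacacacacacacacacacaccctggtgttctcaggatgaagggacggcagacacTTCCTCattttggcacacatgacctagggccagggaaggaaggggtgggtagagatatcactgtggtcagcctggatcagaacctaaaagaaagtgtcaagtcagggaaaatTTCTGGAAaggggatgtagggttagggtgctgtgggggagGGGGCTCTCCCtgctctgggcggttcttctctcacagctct
C3: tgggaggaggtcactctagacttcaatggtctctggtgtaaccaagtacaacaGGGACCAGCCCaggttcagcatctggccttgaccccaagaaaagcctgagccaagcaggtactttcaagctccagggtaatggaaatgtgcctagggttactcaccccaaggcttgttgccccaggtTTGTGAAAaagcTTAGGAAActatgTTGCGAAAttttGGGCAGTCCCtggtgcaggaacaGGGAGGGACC
Cfd: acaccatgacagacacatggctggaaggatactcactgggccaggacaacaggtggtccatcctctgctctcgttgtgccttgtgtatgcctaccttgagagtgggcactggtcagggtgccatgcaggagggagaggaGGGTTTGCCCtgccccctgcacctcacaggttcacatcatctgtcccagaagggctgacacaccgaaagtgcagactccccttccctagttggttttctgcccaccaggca
The C3 window held 3 C/EBP matches close together, TTGTGAAA, TTAGGAAA and TTGCGAAA, which begin at -70, -58 and -45 from the start site. C1qc held 1 C/EBP match, TTCTGGAA at -81, and none was found in the C1qb and Cfd windows. A PU.1 core was found in C1qb at -30 and, on the other strand, in C1qc at -193. The C3 window also held NF-kB matches, of which those beginning at -197 and -196 overlap, and the C1qb and C1qc windows held overlapping pairs as well. The Cfd window held a single capitalised match, the NF-kB motif GGGTTTGCCC at -111. The interferon motif was in none of the 4. Across 32851 promoter entries of the same length, C/EBP was found in 36.85%, the PU.1 core in 23.25%, NF-kB in 45.8% and the interferon motif in 2.98%. A match describes letters in the window and not a bound site.

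The libraries held 56042030 to 72540147 counts each. CPM values are counts scaled by each library's total over the tested genes and by its TMM factor, set by edgeR. These factors ran from 0.676 to 1.67 in LE, 0.917 to 1.34 in VLNT and 0.705 to 0.991 in VtA. LE4 and VtA1 stood apart in tissue content. Summed keratinocyte markers came to 30.1 CPM in LE4 and 51.8 in VtA1, against 1652 to 39485 in the other 10. LE1 stood apart in inflammatory content, with summed neutrophil markers at 12317 CPM against 1.42 to 1543 in the rest. Hindlimb identity genes such as Hoxc10 and Tbx4 were detected in all 12. Of 8 hepatocyte markers, the fibrinogen gene Fga was at 0 in all 12 libraries and albumin (Alb) lay between 0 and 2.89 CPM, the highest level among the 7 other than Hp. Hp, encoding the acute-phase protein haptoglobin, which is also made outside the liver, ran from 1.79 CPM in VtA1 to 939 in LE1 and held nearly all of the list's sum of 1.79 to 944 CPM. In bulk tissue, fewer cells of a type and less RNA per cell cannot be told apart.

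On the TPM scale, which also corrects for gene length, Serping1 was the most abundant of the genes, with a median of 213 over the 12 libraries. The C1q genes followed, at medians of 104 for C1qb, 88.1 for C1qa and 84.4 for C1qc, with C3 at 82.8 and Cfd at 77.7. C4b at 49.3, Cfb at 28.3 and C2 at 10.8 TPM were the lowest. Serping1 exceeded C1qb in 11 of 12 libraries, Cfd exceeded C4b in 11 and Cfb exceeded C2 in 11. The middle of the order was not separated: C1qb exceeded C1qa in 8 libraries, C1qa exceeded C1qc in 6, C1qc exceeded C3 in 4 and C3 exceeded Cfd in 6.

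C1qb, which encodes the B chain of C1q, spanned 54.4-fold between its lowest and highest library. Its level was 527, 45.3, 114 and 9.67 CPM in LE1 to LE4. The VLNT libraries had 111, 91.7, 64.3 and 32.5 CPM and the VtA libraries 15.0, 27.6, 57.1 and 11.04 CPM. VtA1, VtA2 and VtA4 lay below all 4 VLNT libraries and VtA3 lay among them, so the groups overlapped. The means were 174 ± 239 CPM in LE, 75.0 ± 34.3 in VLNT and 27.7 ± 20.8 in VtA (SD, n = 4 each). C1qa, the A chain, ran from 10.5 in LE4 to 461 CPM in LE1, with 33.6 and 78.8 in LE2 and LE3. Its VLNT values were 75.4, 58.8, 52.9 and 33.0 CPM and its VtA values 13.0, 29.1, 54.5 and 13.7 CPM. As for C1qb, VtA3 alone of its group lay inside the VLNT range. C1qc, the C chain, was 144, 36.6, 91.6 and 12.4 CPM in LE, 90.7, 57.4, 51.0 and 29.3 in VLNT and 16.2, 28.8, 45.7 and 13.2 in VtA. LE1 was the highest library for all 3 chains and LE4 the lowest for all 3.

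C2, the protease that joins C4 in the classical C3-cleaving enzyme, was 24.8, 17.3, 25.3 and 2.43 CPM in LE. It was 35.9, 17.9, 17.1 and 11.3 CPM in VLNT and 5.46, 7.07, 18.8 and 7.50 in VtA. LE4 was the lowest of all libraries and VtA3 again reached the VLNT range. C4b, which encodes complement C4, was 259, 143, 248 and 9.67 CPM in LE and 220.0, 126, 213 and 152 in VLNT. In VtA it was 9.14, 121, 187 and 50.03 CPM. LE4 and VtA1, the libraries with the fewest keratinocyte transcripts, lay far below every other library for C4b. Serping1 varied least, by 3.13-fold, with 362, 192, 395 and 126 CPM in LE, 347, 225, 233 and 157 in VLNT and 133, 211, 342 and 155 in VtA. Its groups overlapped over most of their range, and LE4 and VtA1 were again the lowest libraries.

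C3, the central component on which both pathways converge, was 475, 78.8, 345 and 71.2 CPM in LE, 269, 174, 277 and 239.5 in VLNT and 93.0, 307, 329 and 144 in VtA. VLNT had the narrowest range, and both other groups held libraries above and below it. The mean C3 level was 242 ± 200 CPM in LE, 239.8 ± 46.9 in VLNT and 218 ± 117 in VtA (SD, n = 4 each). Cfb, the alternative pathway protease precursor, was 193, 48.8, 71.6 and 6.55 CPM in LE, 66.5, 38.1, 117 and 31.1 in VLNT and 4.48, 32.7, 50.2 and 16.9 in VtA. Cfb was lowest in VtA1 and highest in LE1, and VtA2 and VtA3 lay inside the VLNT range. Cfd was 167, 119, 64.7 and 6.51 CPM in LE, 161, 25.9, 25.1 and 45.5 in VLNT and 14.3, 41.7, 60.8 and 43.0 in VtA. A single VLNT library, VLNT1, held most of the Cfd of its group, and the other VLNT libraries lay within the VtA range.

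**Figure D1:**
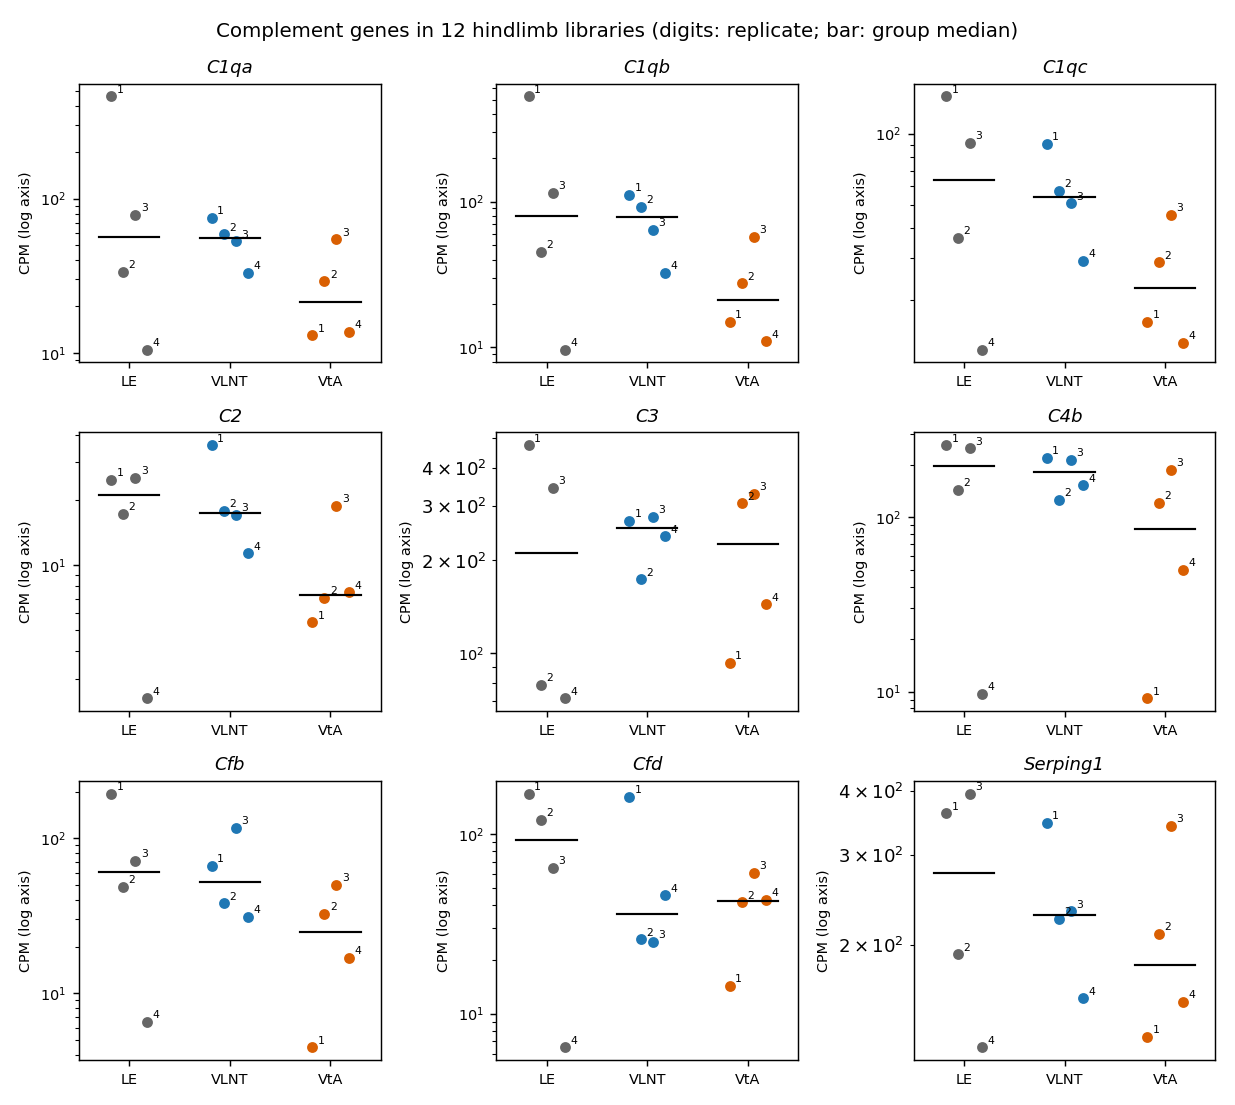
Level of each of the 9 complement genes in every library, in CPM on a log axis, by group (LE, VLNT, VtA), with a short line at each group's median. Within LE the points reach from 9.67 CPM in LE4 to 527 CPM in LE1 for C1qb, and the 3 groups overlap for every gene.

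With lymph node transfer alone as the reference, the VtA comparison asks what ABTAA added to the transfer. All 9 genes had a lower fitted level in VtA than in VLNT, where 53.3% of all genes tested did, with a median log2 fold change of -0.995 against -0.07 over all genes. By edgeR's quasi-likelihood test with Benjamini-Hochberg adjustment, 0 of the 9 passed an adjusted p of 0.05, beside 0.0% of all genes. At an unadjusted p under 0.05, 0 of the 9 were lower beside 5.36% of all genes, of which 1118 in either direction passed that level. By DESeq2, 0 of the 9 passed among 188 genes called, beside 0.63% of genes called lower. Limma-voom with sample weights, which gives variable libraries less weight, called 3606 genes and placed C1qb and C2 among them as lower, 2 of 9 beside 10% of genes called lower. None of the 9 had all 4 VtA libraries below all 4 VLNT libraries, against 8.32% of genes. On the log2 scale C1qb was lower by 2.71-fold (-1.44 ± 0.95 SE, adjusted p = 0.653), with a 95% interval from -3.59 to 0.72. On leaving out single libraries C1qb ran from -2.10, without VtA3, to -1.17, without VtA4. The median over the 9 genes was -1.60 without VtA3, -0.77 without VtA4 and -0.81 without VLNT1, where 7 of 9 were lower. Cfb (-1.28 ± 0.88), C1qc (-1.14 ± 0.66) and C2 (-1.08 ± 0.64) had the next values, each with an adjusted p of 0.653 by edgeR. C1qa had -0.995 ± 0.91, C4b -0.95 ± 0.89 and Cfd -0.69 ± 0.84. The interval of C3 (-0.13 ± 0.63) ran from -1.55 to 1.28 and that of Serping1 (-0.20 ± 0.46) from -1.23 to 0.83, so both intervals held lower and higher levels alike.

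Markers of several other cell types also differed in fitted level between VLNT and VtA, and their part in the result was not tested. Of 12 macrophage markers 12 had lower fitted levels in VtA, with a median log2 fold change of -1.22, and their summed level ranged over 179 to 668 CPM in VtA against 398 to 987 in VLNT. All 15 keratinocyte markers (median -1.65) and all 10 fibroblast markers (median -1.08) had lower fitted levels as well. Of 8 neutrophil markers 6 had lower fitted levels, with a median of -2.35 and sums of 1.99 to 83.6 CPM in VtA and 50.7 to 791 in VLNT. The 3 hepatocyte markers tested were lower too (median -1.43), with sums of 1.79 to 23.3 CPM and 25.2 to 157. Adipocyte markers had a median near that of all genes, -0.15 with 9 of 12 lower, and endothelial markers had 7 of 10 higher (median 0.29). The summed keratinocyte level was 51.8 to 9651 CPM in VtA and 14836 to 27282 in VLNT, and the fibroblast level 2286 to 8252 and 4402 to 19601. All 14 skeletal muscle markers had higher fitted levels (median 1.10), and their sum was 162154 to 292515 CPM in VtA and 38545 to 192261 in VLNT. With the log2 keratinocyte share as a covariate, the fitted log2 difference turned positive for 6 of the 9 genes, among them Cfd at 0.74 and C3 at 0.56. The median over the 9 was then 0.30, against 0.057 over all genes. The keratinocyte share did not overlap between VtA and VLNT, so this fit cannot tell the share apart from the group. With the muscle share as a covariate 7 of 9 were lower, with a median of -0.54 against -0.021 over all genes. Without LE4 and VtA1 the median over the 9 genes was -0.78, with 8 of 9 lower, against a median of -0.074 over all genes. Values of TPM gave 9 of 9 lower, with a median of -1.65 on the log2(TPM + 1) scale, where the median of all genes was -0.30.

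Against lymphedema, the VtA libraries again had a lower fitted level for all 9 genes, where 54.4% of all genes did, and the median log2 fold change was -1.16 against -0.11 over all genes. With the keratinocyte share as a covariate 5 of the 9 were lower (median -0.045), and with the muscle share 5 of the 9 (median -0.24). The medians of all genes in these fits were 0.107 and 0.099. Apart from LE4, every LE library had a larger keratinocyte share than every VtA library, so that fit can hardly tell share from group. C1qb and C1qa had the largest differences, -2.65 ± 0.99 (SE, a 6.28-fold lower level) and -2.40 ± 0.95 (5.29-fold), and C1qc had -1.45 ± 0.67 (2.74-fold). By edgeR the adjusted p-values of C1qb, C1qa and C1qc were 0.288, 0.288 and 0.303, and 0 of the 9 genes and 0.0% of all genes passed. C1qa and C1qb were lower at an unadjusted p under 0.05 (0.0269 and 0.0206), 2 of 9 beside 13.5% of all genes. None of the 9 had all VtA libraries below all LE libraries, against 1.27% of genes. Cfb had -1.62 ± 0.89, Cfd -1.16 ± 0.85, C2 -0.85 ± 0.64, C4b -0.85 ± 0.89, Serping1 -0.36 ± 0.46 and C3 -0.15 ± 0.63. These comparisons share the VtA libraries with the preceding one and are not independent of it. Cell type markers also differed in fitted level between these groups: 11 of 12 macrophage markers (median -0.82), 15 of 15 keratinocyte (-1.74), 9 of 10 fibroblast (-0.99), 7 of 8 neutrophil (-3.52) and 3 of 3 hepatocyte markers (-2.46) had lower fitted levels in VtA. Of the skeletal muscle markers 13 of 14 had higher fitted levels (0.98), as did 8 of 10 endothelial ones (0.37), and 7 of 12 adipocyte markers were lower (-0.15). In LE the summed levels ran from 122 to 1626 CPM for macrophage markers, 30.1 to 39485 for keratinocyte and 1.42 to 12317 for neutrophil markers. The part of these in the complement values was not tested.

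The VtA against LE values rested on single lymphedema libraries. Without LE4, where the C1q genes were lowest, C1qb (-3.05, adjusted p = 0.0204), C1qa (-2.80, 0.0255) and C1qc (-1.82, 0.0316) passed edgeR's adjusted threshold, 3 of 9 genes beside 16.5% of genes called lower, and 6288 genes passed in all. For the C1q genes these p-values follow the removal of their lowest library, so they are no test of the groups. Without LE1, where they were highest, the log2 fold changes fell in size to -1.03 for C1qb, -0.57 for C1qa and -0.85 for C1qc, and C3 became 0.41. Limma-voom with sample weights called C1qa, C1qb, C1qc and C2, 4 of 9 beside 25.9% of genes called lower, among 10639 genes called in all, and DESeq2 called 0 of the 9 among 798, beside 2.59% called lower.

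Between lymph node transfer alone and lymphedema, the differences in mean CPM were smaller than the SD within LE for all 9 genes. Their fitted level was lower in VLNT for 7 of 9, beside 48.7% of all genes, with a median log2 fold change of -0.31 against 0.01 over all genes. On TPM the direction turned, with 2 of 9 lower and a median of 0.26 on log2(TPM + 1) and 0.28 on log2(TPM + 0.1). The medians of all genes on these scales were 0.14 and 0.32. None passed by edgeR, where 0.0% of all genes did and every adjusted p was 0.99992, by DESeq2, where 2 genes passed (0.00674% were called lower), or by limma-voom, where 1362 did (0.562% lower). At an unadjusted p under 0.05, 0 of the 9 were lower beside 1.87% of all genes, and 396 genes passed that level in either direction. None of the 9 had all VLNT libraries below all LE libraries, against 0.177% of genes. C1qa had -1.41 ± 0.92 (SE) and C1qb -1.21 ± 0.95, while C1qc had -0.31 ± 0.65 and C3 -0.01 ± 0.63. Without LE1, 0 of 9 were lower, and the log2 values were 0.43 for C1qa and 0.41 for C1qb. Summed neutrophil markers were 12317 CPM in LE1 and 50.7 to 791 in VLNT, and their part in the result was not tested.

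**Figure D2:**
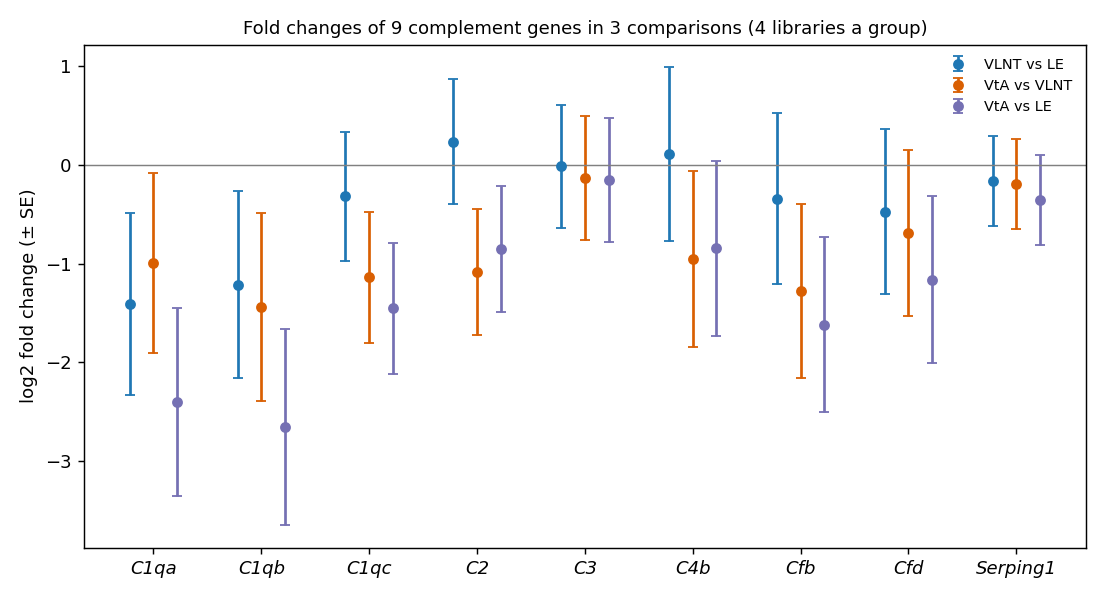
Log2 fold change of each of the 9 complement genes in the 3 comparisons, from edgeR, with ± SE as bars and 0 as the line of no difference. All 9 points lie below 0 for VtA against VLNT and for VtA against LE. At the adjusted threshold of 0.05, 0 of the 9 genes passed in each comparison.

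C1q was next read against other macrophage transcripts in the same library, as the mean log2 CPM of its 3 genes minus the mean log2 CPM of the 12 macrophage markers. This difference was 0.93 ± 0.40 in VLNT and 0.96 ± 0.25 in VtA (SD, n = 4 each), so the groups differed by 0.03 on the log2 scale. In LE it was 1.42 ± 0.98, spread from 0.60 in LE2 to 2.84 in LE1. The LE and VtA ranges overlapped, with VtA libraries between 0.61 and 1.198. For Cfd, the same reading against 12 adipocyte markers gave 2.43 ± 1.23 in LE, 1.76 ± 0.92 in VLNT and 1.73 ± 0.38 in VtA (SD, n = 4 each). By a two-sided exact permutation test, whose smallest possible p was 0.0286, VtA and VLNT differed by -0.03 (p = 0.971), VLNT and LE by -0.68 (p = 0.429) and VtA and LE by -0.70 (p = 0.314). LE4, at 0.84, was the lowest library, and without it the VtA minus LE difference was -1.23 with an exact permutation p of 0.0286. That p follows the removal of the lowest library on the same measure, so it is no test of the groups. Over all single libraries left out, the VtA minus LE difference ran from -1.23 to -0.25. VLNT1, which held the most Cfd in its group, also had the most adiponectin (Adipoq) transcript, 25.7 CPM against 5.98 to 11.1 in the other VLNT libraries. The sum of the 12 adipocyte markers went the other way, at 632.5 CPM in VLNT1 against 664 to 1059 in the other VLNT libraries.

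**Figure D3:**
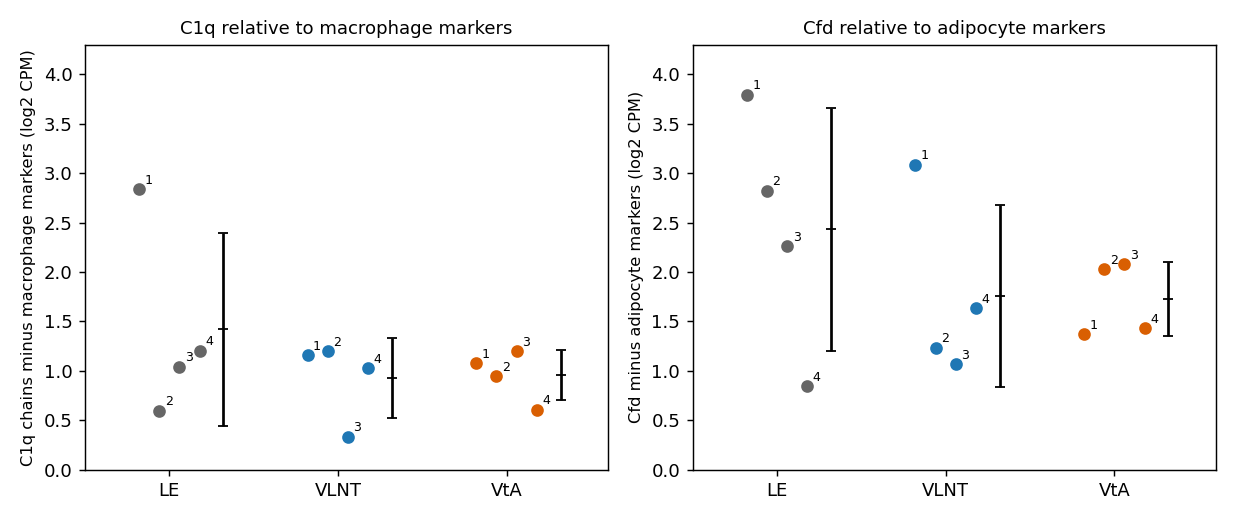
C1q relative to macrophage markers and Cfd relative to adipocyte markers in every library, as differences of mean log2 CPM, by group, with group means. For C1q the VLNT mean of 0.93 and the VtA mean of 0.96 lie close together, while LE1 stands above at 2.84. For Cfd the LE libraries spread from 0.84 to 3.79.

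The 9 genes varied together across the 12 libraries. Over 36 gene pairs, Pearson's r of log2 CPM ran from 0.55 to 0.99 with a median of 0.81, and 35 pairs had an adjusted permutation p under 0.05 (100000 resamples, Benjamini-Hochberg over the 36). On deviations from the group means the median was 0.84. Leaving out the 2 libraries farthest from the median of the x measure gave a median of 0.79 and a lowest value of 0.28, for C2 with C3. The closest pairs were C1qa with C1qb (r = 0.99, Spearman's rho = 0.99) and C1qb with C1qc (r = 0.98, rho = 1), each with p = 1e-05, the smallest the resamples can give. C4b and Cfb had r = 0.94 and rho = 0.94, and 0.86 without LE4 and VtA1. C3 with Cfd was the loosest pair (r = 0.55, rho = 0.52, permutation p = 0.0624). All pairs share the libraries' tissue content, given above, whose part was not tested. Pairs drawn from all genes were not put through the same measure, so these values do not set the 9 genes apart from others.

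Among 15015 genes with a mean of at least 1 CPM, those whose log2 CPM followed the mean of the C1q genes most closely over the 12 libraries were Lat2 (r = 0.99), Ifnar2, Tnfaip8l2 and Lrrc25 (r = 0.98 each). Lat2 encodes a signalling adaptor of leukocytes and Ifnar2 a chain of the type I interferon receptor. For C3 they were Pi16 (0.91), a gene of fibroblasts, Siglecg (0.90), Thbs3 (0.89) and Ccl6 (0.89), a chemokine. For Cfd they were H2-T22 (0.92), Trbc1 (0.91), Rbmx2 (0.90) and Adora3 (0.90). These likenesses are descriptions over 12 libraries that share tissue content.

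The C1q chains assemble in equal amounts into the C1q protein, and 1 library stood apart in the ratio of their TPM levels. C1qa to C1qc was between 0.790 and 1.17 in those 11 and 3.17 in LE1, and C1qb to C1qc was between 0.753 and 1.54 and 3.55 in LE1. C1qa to C1qb stayed between 0.654 and 1.26 in all 12, LE1 included. LE1 thus differed in C1qc relative to the other chains, and its counts were 23300 for C1qa, 26632 for C1qb and 7261 for C1qc.

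**Figure D4:**
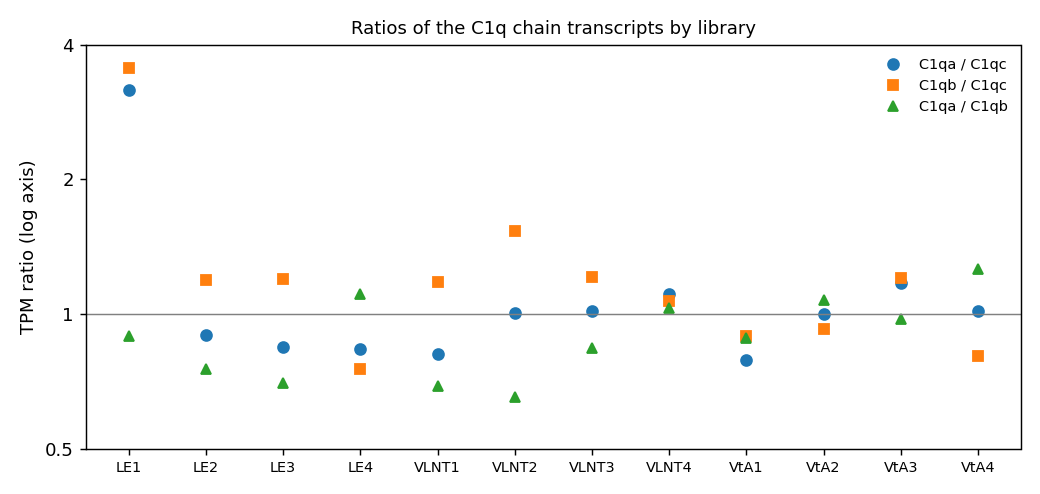
Ratio of TPM between the C1q chains in every library, by group. LE1 lies apart at 3.17 for C1qa to C1qc and at 3.55 for C1qb to C1qc, while C1qa to C1qb stays between 0.654 and 1.26 in all libraries.

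Beyond the 9, a further 49 complement genes were listed by role, of which 40 passed the filter and 9, with at most 33 counts in any library, did not. Between VtA and VLNT, 28 of the 40 had lower fitted levels, with a median log2 fold change of -0.55, and none passed by edgeR, by which 0.0% of all genes did. Related gene copies (C1ra and C1rb, C1s1 and C1s2, C4a and C4b, Cd59a and Cd59b, Cd55 and Cd55b) can make the split of reads within a pair uncertain, the more so the more alike the copies are. Of the C1 proteases and lectin pathway genes, 9 of 10 were lower (median -0.55). Masp1, a protease of the lectin pathway, was 3.28 ± 1.18 CPM in VtA and 11.5 ± 8.20 in VLNT (SD, n = 4 each; log2 fold change -1.80 ± 0.69 SE). C4a had -1.06 ± 0.77, C1s2 -0.68 ± 0.53 and the scavenger collectin gene Colec12 -0.54 ± 0.42. Alternative and terminal pathway genes had 4 of 6 lower (median -0.83). Cfp, which encodes properdin, the stabiliser of the alternative C3-cleaving enzyme, had -1.18 ± 0.96, Hc, encoding C5, had -3.05 ± 1.60 (-5.29 to -2.67 on leaving out single libraries) with 0 counts in VtA1 and VtA2, and C6 had -0.97 ± 1.15. C8g was higher, 1.12 ± 0.165 CPM in VtA against 0.461 ± 0.108 in VLNT (SD, n = 4 each), with all 4 VtA libraries above all 4 VLNT libraries. Its counts were low, 50, 66, 70 and 57 in VtA and 37, 45, 28 and 28 in VLNT.

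Receptors had the lowest median among the role lists, -1.47, with 7 of 9 lower, and Itgam is also on the macrophage marker list. C5ar1, the receptor for the fragment C5a that draws in neutrophils, was 3.79 ± 1.77 CPM in VtA and 11.9 ± 6.72 in VLNT (SD, n = 4 each; -1.65 ± 0.63 SE). The integrin chains of complement receptors had -1.63 ± 0.68 for Itgam, -1.55 ± 0.76 for Itgb2 and -2.08 ± 1.04 for Itgax. Membrane regulators, which protect host cells from complement, had the highest median, 0.59, with 3 of 8 lower. Cd59a, which blocks the membrane attack complex, was 22.1 ± 5.01 CPM in VtA and 11.8 ± 1.61 in VLNT (SD, n = 4 each; 0.90 ± 0.40 SE), and its groups did not overlap. Cd59b had 1.04 ± 0.48, also without overlap, and Cd55 0.66 ± 0.53 and Cd46 0.65 ± 0.55. Of the soluble regulators 5 of 7 were lower (median -0.21). Vtn, encoding vitronectin, had 0.93 ± 0.58 with no overlap between groups. The remaining named regulators were near the limit of detection. Cpn1 had 26, 15, 49 and 22 counts in VLNT and 9, 0, 0 and 7 in VtA (-2.11 ± 1.42 SE, from -3.19 to -1.67 on leaving out single libraries). Cfi had 48, 61, 28 and 0 counts in VLNT and 0, 0, 24 and 0 in VtA, and its fitted value of -2.30 ± 1.69 ran from -7.93 to -1.85. Cpn2 had 25, 37, 2 and 0 counts in VLNT and none in VtA, so no fold is given. In all, 5 of the 40 genes had every VtA library above every VLNT library beside 7.48% of all genes, and 2 of the 40 had every VtA library below beside 8.32%. The lymphedema library LE4 lay within or above the VtA range for those 5, with 27.9 CPM of Cd59a, 3.70 of Cd59b, 1.82 of C8g, 35.9 of Vtn and 68.1 of C1qbp. The other LE libraries lay below that range, except LE1 for C8g. The part of tissue content was not tested. At an unadjusted p under 0.05 by edgeR, 4 of the 40 were lower beside 5.36% of all genes and 2 were higher beside 0.304%. Limma-voom with sample weights called 4 of the 40 higher (C8g, Vtn, Cd59a and Cd59b) beside 8.25% of genes, and 9 lower beside 10%, among them Masp1, Cfp, C5ar1, Itgam, Itgb2 and Itgax, while DESeq2 called 0. For VtA against LE, 25 of the 40 had lower fitted levels (median -0.51) beside 54.4% of all genes, and for VLNT against LE 18 did (median 0.03) beside 48.7%, with 0 passing by edgeR in either. For VtA against LE limma-voom called 15 of the 40 lower beside 25.9% of all genes, and 7 higher, where it called 5518 of all 19740 genes higher. DESeq2 called 1 lower there beside 2.59% of all genes. For VLNT against LE limma-voom called 1 higher, where it called 1251 of all 19740 genes higher, and DESeq2 called 0.

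**Figure D5:**
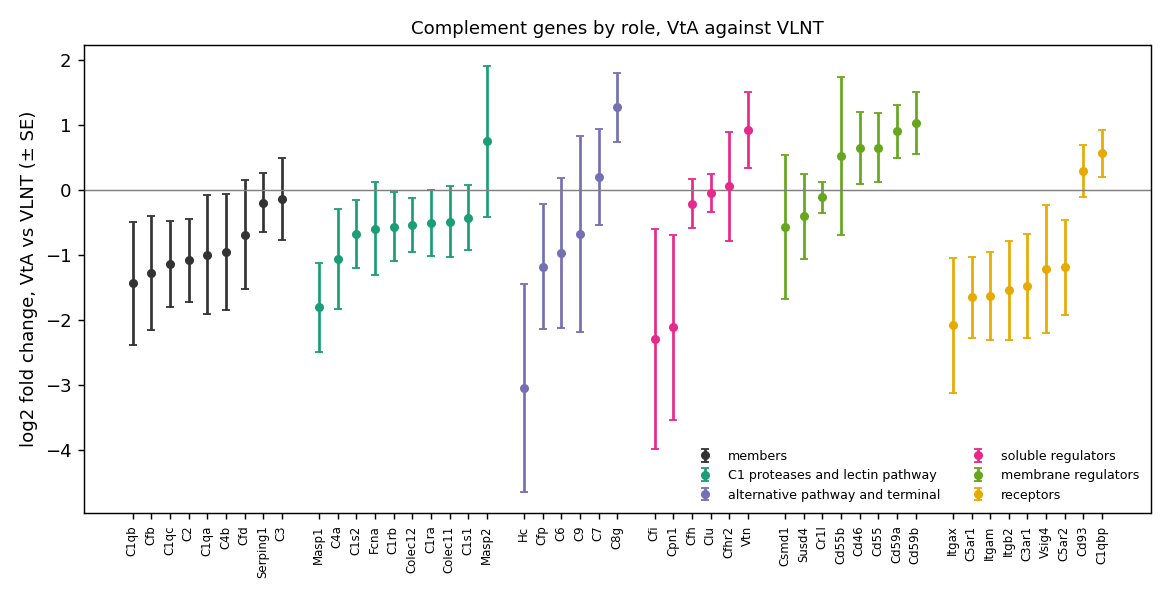
Log2 fold change between VtA and VLNT of the 9 complement genes and of those outside the 9, the latter grouped by role, from edgeR, with ± SE as bars. Cpn2, with 0 counts in all VtA libraries, is left out. Receptors have the lowest median, -1.47, and membrane regulators the highest, 0.59.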

How the data were processed

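Polyadenylated RNA of flash-frozen mouse hindlimb was sequenced after TruSeq stranded library preparation, per the labels' protocols. Tools listed in the submitters' processing notes are HISAT2 2.1.0, StringTie 2.1.3b, bcl2fastq 2.20.0 and Trimmomatic; mm10 and GRCh38 are listed there as builds, with no statement of what each served for. How strand and multi-mapping reads were treated in counting, and which annotation was used, is not given in those notes. The authors deposited a raw read count, an FPKM value and a TPM value for each gene and library. The deposited FPKM, scaled by gene length and library total, was not used. The deposited TPM served for levels between genes and as an alternative scale.

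Counts of all 12 libraries (56042030 to 72540147) were fitted with edgeR 4.0.16 (R 4.3.3; TMM scaling, filterByExpr, quasi-likelihood test, group means, Benjamini-Hochberg over 19740 genes); CPM uses the TMM library sizes. DESeq2 1.42.0 and limma 3.58.1 were alternatives. On counts simulated for VtA against VLNT, 2% of 2-fold, 28% of 4-fold, 86% of 16-fold and 94% of 64-fold changes were recovered. The shares for the same folds were 0%, 30%, 78% and 92% in VLNT against LE, and 2%, 16%, 74% and 86% in VtA against LE. No pair among 18 within-group pairs held identical values, and all differed by more than counting noise. The 9 genes, the complement lists and the marker lists were chosen with earlier results of these data known. Named genes were the 9, up to 4 of each role list by smallest unadjusted p in VtA against VLNT, any called gene, and the 4 closest to C1q, C3 and Cfd. C1q relative to macrophage markers is given without the planned permutation p, since it is a score over the chosen genes.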

Additional observations from a re-analysis of the deposited data

Results flagged for a closer look

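In 36 groups of 4 libraries, 27 of gene levels and 9 of C1q chain ratios, the highest and lowest library were checked for a gap above Dixon's 95% critical value, which chance exceeds in about 1 in 20 groups. The check singled out 2 values. C2 in LE4 was 2.43 CPM on the linear scale, low against the other LE libraries on the log2 scale. The ratio of C1qa to C1qc in TPM was 3.17 in LE1, high against the other LE libraries.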

How the results depend on the processing

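Counts of genes called moved with the test: DESeq2 called 2 genes for VLNT against LE, 188 for VtA against VLNT and 798 for VtA against LE, and limma-voom called 1362, 3606 and 10639, with 2 of the 9 complement genes for VtA against VLNT and 4 for VtA against LE. Fitting only the groups compared, or leaving out LE4 and VtA1 together, called 1 gene for VtA against VLNT, and leaving out both called 4004 for VtA against LE. Without single libraries the counts ran from 0 to 10 for VtA against VLNT and from 0 to 6288 for VtA against LE, with 0 to 3 of the 9 genes in the latter. Libraries with the same replicate number were not generally alike in their deviations from group means. Over 12 same-number pairs r ran from -0.43 to 0.56, 3 were over 0.1 and 1 library correlated best with its own number. Tissue content differed within groups, so this check cannot exclude a pairing. With the replicate block 0 genes were called in each comparison, the median of the 9 was -0.06, -1.03 and -0.71 (VLNT against LE, VtA against VLNT, VtA against LE), C1qc was 0.011 and C3 0.26 for VLNT against LE, and C3 was 0.13 for VtA against LE. The other reversed signs follow, as log2 fold changes, and the cause was not tested. For VLNT against LE they were C1qb 0.078 and 0.10, C1qc 0.26 and 0.28, C3 0.40 and 0.42, Cfb 0.37 and 0.45, and Serping1 0.11 and 0.12 on log2(TPM + 1) and log2(TPM + 0.1); C2 -0.26, C3 0.22, C4b -0.12 and Cfb 0.062 with limma-voom; C3 0.016 with no filter; C4b -0.075 with the epidermis covariate; Cfd 0.042 and Serping1 0.026 with the muscle covariate; and C2 -0.13 and C4b -0.30 without LE4 and VtA1. For VtA against VLNT they were C1qa 0.31, C3 0.56, C4b 0.41, Cfb 0.010, Cfd 0.74, Serping1 0.30, C4a 0.11, Cfp 0.17, C6 0.38 and Cfi 0.81 with the epidermis covariate, Cfd 0.16 and Serping1 0.034 with the muscle covariate, Cfd 0.25 with limma-voom, and C3 0.10 and Cfd relative to adipocyte markers 0.090 without LE4 and VtA1. For VtA against LE they were C2 0.040, C3 0.37, C4b 0.34 and Cfd 0.11 with the epidermis covariate, C2 0.33, C4b 0.089, Cfd 0.20 and Serping1 0.060 with the muscle covariate, and C3 0.025 with limma-voom. Leaving out single libraries gave, for VLNT against LE, -1.79 to 0.43 for C1qa, -1.60 to 0.41 for C1qb, -0.66 to 0.29 for C1qc, -0.17 to 0.47 for C2, -0.32 to 0.54 for C3, -0.30 to 0.41 for C4b, -0.82 to 0.58 for Cfb, -1.47 to 0.019 for Cfd and -0.40 to 0.083 for Serping1. For VtA against VLNT it gave -0.44 to 0.10 for C3, -0.996 to 0.31 for Cfd and -0.56 to 0.032 for Serping1, and for VtA against LE -0.49 to 0.41 for C3. Cfd relative to adipocyte markers ran from -0.26 to 0.41 for VtA against VLNT and from -1.23 to -0.25 for VtA against LE. Each of the 9 genes had counts in every library. A p that misses the threshold does not show that levels were alike.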
